A study of Mus musculus with 4 samples.

Results

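The annexins are a family of proteins that bind acidic phospholipids in the presence of calcium. In the deposited gene table, the 10 family genes Anxa1 to Anxa9 and Anxa11 were picked out by symbol, each as 1 row among 37574 gene rows, and all 10 were among the 16219 genes that the authors' software tested. The RNA came from oral tumours of C57BL/6 mice given the carcinogen 4NQO for 26 weeks. All of the mice carried Bmi1CreER, a tamoxifen-inducible Cre expressed from Bmi1, together with a tdTomato reporter, and tumours were taken 24 hours after tamoxifen. EpCAM-positive cells were sorted into a Tomato-positive fraction, in which Cre had acted under the Bmi1 promoter, and a Tomato-negative fraction, with 2 samples of each and 4 in all. The Cre labels cells in which Bmi1 is active, which need not be a single cell type, and the sort was on 1 surface protein and 1 reporter. The labels give neither the age of the mice nor whether different animals gave the samples of a fraction. The spread between these samples may therefore be technical, and the p-values cannot be taken to cover the spread between animals.

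Annexins share a conserved core of repeats, which typically holds the calcium sites. Their variable N-terminal tail binds partner proteins, often of the S100 family. Through this calcium-dependent contact with membranes, annexins take part in vesicle fusion, endosome traffic, the link between membrane and actin, and the sealing of plasma membrane wounds. In stratified epithelia, several of them are abundant in keratinocytes, and annexin A1 and annexin A2 are studied in squamous cancers.

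Values are in FPKM, which counts sequenced fragments per length of transcript and per library size, so levels can be compared between genes. The authors' deposited table gives 1 FPKM per gene and fraction, which joins both samples, so no SD can be given, and how deeply each sample was sequenced is unknown. A gene is called where the deposited q-value, adjusted over all genes tested, lies below 0.05. Directions are Tomato-positive over Tomato-negative. Of the tested genes, 27.2% were called from the authors' deposited table, 13% higher and 14.2% lower. Bmi1 itself was at 3.11 FPKM in the Tomato-negative and 7.03 FPKM in the Tomato-positive fraction. Of the 7 markers of stratified epithelium, 4 were called higher and 0 lower, with Krt5 at 1670.5 and 5176 FPKM, Epcam at 25.1 and 46.4 FPKM and Cdh1 at 96.3 and 85.3 FPKM. Markers of other cell types were present as well. In the Tomato-negative fraction the muscle gene Mylpf (849 FPKM), the fibroblast gene Dcn (406 FPKM) and Cd74 of antigen-presenting cells (303 FPKM) stood above Epcam and Cdh1. The epithelial markers Perp (3114 FPKM), Krt14 (2292 FPKM) and Krt5 stood above all of them there, and Dsp (453 FPKM) above Dcn and Cd74. In Tomato-positive cells Mylpf, Dcn and Cd74 were at 61.6, 58.5 and 72.5 FPKM, still above Epcam but under Cdh1.

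The annexins did not move as a block. Anxa1, Anxa2, Anxa3, Anxa8 and Anxa11 rose in Tomato-positive cells, Anxa6 and Anxa9 fell, and Anxa4, Anxa5 and Anxa7 did not pass the test. That is 5 of 10 called higher, where 13% of all tested genes were, and 2 of 10 called lower, where 14.2% were. Among the 10924 tested genes with a mean of both fractions of at least 5 FPKM, as all 10 annexins had, the shares were 14.3% and 13.6%. Each of the 7 called annexins differed at least 2-fold, against 7.11% of tested genes that were called and at least 2-fold higher and 9.67% that were called and at least 2-fold lower. Their p-value was 5e-05 in the authors' deposited table, the lowest it holds and one shared by 2004 tested genes, with q = 0.000405. At that floor the p-values do not rank the 7 genes. The median log2 fold of the 10 annexins was 0.63, beside 0.02 over all tested genes.

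**Figure D1:**
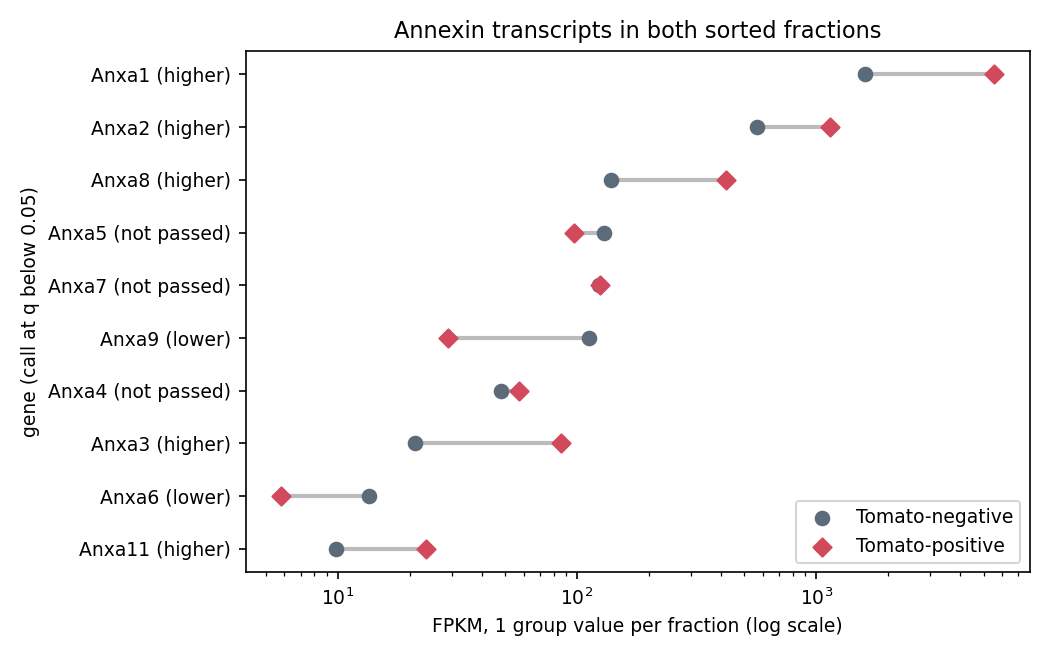
FPKM of each annexin gene (horizontal log axis) in Tomato-negative (circles) and Tomato-positive (diamonds) cells, 1 group value per fraction with no replicate spread, genes ordered by their Tomato-negative level and labelled by their call at q below 0.05. Anxa1 and Anxa2 lead in both fractions, while Anxa9 drops from 112 to 28.9 FPKM and Anxa3 climbs from 21.0 to 85.8 FPKM.

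**Figure D2:**
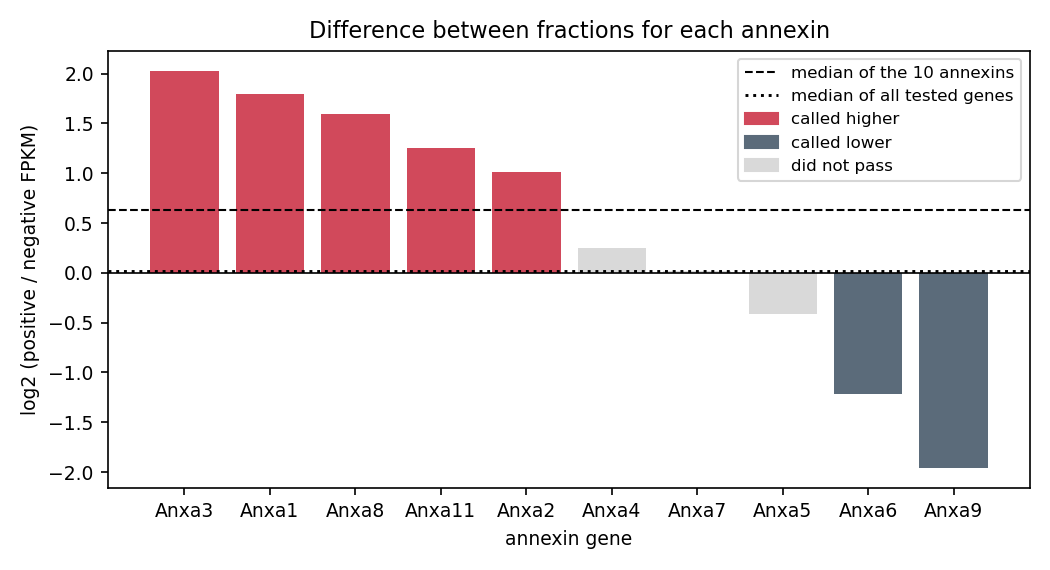
Log2 ratio of Tomato-positive to Tomato-negative FPKM for each annexin (bars from 0), coloured by call, with the median of the 10 annexins (dashed, 0.63) and of all tested genes (dotted, 0.02). The values run from 2.03 for Anxa3 to -1.96 for Anxa9, with Anxa7 at 0.02, too small to be seen as a bar.

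Anxa1 encodes annexin A1, a glucocorticoid-induced protein known as an inhibitor of phospholipase A2 and as a secreted ligand of formyl peptide receptors that limits neutrophil entry into tissue. Anxa1 (chromosome 19, 20447918 to 20465434, mm9) was at 1594 FPKM in the Tomato-negative and 5537 FPKM in the Tomato-positive fraction. This 3.47-fold rise, a log2 fold of 1.80, took it from rank 99 to rank 24 among tested genes by FPKM. Anxa1 was the most abundant annexin in both fractions. Anxa2 encodes annexin A2, which forms a complex with S100A10 at the plasma membrane and binds plasminogen and its activator at the cell surface. Anxa2 (chromosome 9, 69301427 to 69339602, mm9) rose from 568 to 1141 FPKM, 2.01-fold, from rank 301 to rank 131. Its deposited locus is shared with the microRNA row Mir3109 and the predicted gene Gm16144. Gm16144 was at 0 and 0.264 FPKM, far under the level of Anxa2, while the row of Mir3109 held 53.0 and 0 FPKM and missed the threshold (the authors' deposited table gave q = 0.198).

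Anxa3 had the largest rise of the family in fold. Its product, annexin A3, is abundant in the cytosol of neutrophils, where it associates with granules, and is also made by epithelial cells. Anxa3 (chromosome 5, 97222404 to 97274987, mm9) went from 21.0 to 85.8 FPKM, a 4.09-fold rise with a log2 fold of 2.03. It moved from rank 5347 to rank 1799 by FPKM, and its log2 fold stood at rank 459 of the 16010 tested genes with values above 0 in both fractions. Anxa8, whose product acts on late endosomes, rose 3.03-fold, from 139 to 419 FPKM (chromosome 14, 34899167 to 34913757, mm9). With that it was the third most abundant annexin in either fraction, close to Anxa5 and Anxa7 in Tomato-negative cells and 4.33 times Anxa5 in Tomato-positive cells. Anxa11 has a long N-terminal tail that binds the calcium sensor ALG-2 and S100A6. Anxa11 (chromosome 14, 26661669 to 26706290, mm9) was the least abundant annexin in Tomato-negative cells, at 9.84 FPKM, and rose 2.38-fold to 23.4 FPKM.

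Most of the tested neutrophil markers went in the same direction as these rises. Of 8 tested markers 5 were called higher and 1 lower, beside 13% and 14.2% of all tested genes. The summed FPKM of the 11 listed genes was 1450.2 in the Tomato-negative and 10936 in the Tomato-positive fraction. Most of that sum came from S100a8 (520.4 and 6383 FPKM) and S100a9 (882 and 4506 FPKM), which keratinocytes also express. The receptor Csf3r was at 0.637 and 17.1 FPKM and Retnlg at 0.856 and 19.2 FPKM. The chemokine receptor gene Cxcr2 rose from 3.13 to 5.51 FPKM, and the granule gene Mmp8 was at 0.0651 and 1.35 FPKM and did not pass. Camp leaned the other way, at 0.954 and 0.645 FPKM, and did not pass either. Ly6g, and Elane and Mpo, which are transcribed mainly in immature granulocytes, were under 1 FPKM in both fractions and were not tested, and none of the 11 was at 0. Of these, Ly6g was at 0.636 FPKM in the Tomato-negative and 0.302 FPKM in the Tomato-positive fraction. The marker called lower was Ltf (40.9 and 2.67 FPKM), a gene that also stands in the list of glandular markers. The part of neutrophil RNA in the rise of Anxa1 and Anxa3 was not tested. In these bulk samples, fewer cells of a type and less RNA per cell cannot be told apart.

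Anxa9 showed the largest fall. Its product is a keratinocyte protein, first described in human skin under the name pemphaxin, and human annexin A9 lacks the usual calcium sites of the core. Anxa9 went from 112 to 28.9 FPKM, 3.89-fold lower in Tomato-positive cells, with a log2 fold of -1.96. By FPKM it fell from rank 1386 to rank 4310. The deposited locus of Anxa9 (chromosome 3, 95057596 to 95111098, mm9) also holds Prune and Fam63a. Prune was at 6.94 and 8.02 FPKM (the authors' deposited table gave q = 0.844). Fam63a was at 75.7 and 63.5 FPKM (the authors' deposited table gave q = 0.618), so neither neighbour passed the test. Whether reads were assigned by strand is not given in the sources used here.

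Anxa6 was the other member that fell. Annexin A6 differs from the rest in that its core is doubled, and it acts in endosome traffic and cholesterol distribution. Anxa6 (chromosome 11, 54792610 to 54846947, mm9) went from 13.5 to 5.82 FPKM, 2.32-fold lower, with a log2 fold of -1.21, and was the least abundant annexin in Tomato-positive cells. Markers of several other cell types fell beside it. Skeletal muscle markers were lower in 11 of 12 and higher in 0, with a summed FPKM of 1911 in the Tomato-negative and 137 in the Tomato-positive fraction. Fibroblast and pericyte markers were lower in 9 of 10 and higher in 0, with sums of 598 and 103 FPKM. Macrophage and dendritic cell markers were lower in 7 of 9 and higher in 0 (666 and 179.9 FPKM). Markers of simple or glandular epithelium were lower in 8 of 10 and higher in 1 (329 and 23.8 FPKM), whereas 5 of 8 endothelial markers were called higher and 1 lower (34.1 and 45.3 FPKM). Beside these counts stand 13% of all tested genes called higher and 14.2% called lower. In these 5 lists no marker was at 0 in either fraction. By the authors' Cuffdiff test, the muscle, fibroblast and macrophage lists also had 0 members higher at an unadjusted p below 0.05. The share of all tested genes at that unadjusted threshold is not given here. The part of these cell types in the fall of Anxa6 and Anxa9 was not tested.

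The 3 members that did not pass are expressed at middling levels. Anxa7 encodes annexin A7, or synexin, which promotes the fusion of secretory granules. Anxa7 (chromosome 14, 21274483 to 21299355, mm9) was at 123 FPKM in the Tomato-negative and 125 FPKM in the Tomato-positive fraction, a log2 fold of 0.02, for which the authors' deposited table gave q = 0.964. Anxa4, whose product is found in secretory epithelia, was at 48.1 and 57.4 FPKM (chromosome 6, 86686834 to 86743578, mm9), for which the authors' deposited table gave q = 0.380. Anxa5 encodes annexin A5, which binds phosphatidylserine and is used as a probe of dying cells. It was at 129 and 96.9 FPKM (chromosome 3, 36347847 to 36374765, mm9), a log2 fold of -0.42. For Anxa5 the p-value of 0.0181 became q = 0.0627 in the authors' deposited table. Without values per sample no interval can be put on these differences, and the test does not show that the 3 genes were equal in both fractions.

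The make-up of the annexin pool differed between the fractions. The summed FPKM of the 10 genes was 2757 in the Tomato-negative and 7521 in the Tomato-positive fraction, a ratio of 2.73. Anxa1 made up 57.8% of the sum in the Tomato-negative and 73.6% in the Tomato-positive fraction, and it accounted for 82.8% of the difference between the sums. Without Anxa1 the sums were 1163 and 1984 FPKM, a ratio of 1.71. Anxa2 rose in level but fell as a share of the pool, from 20.6% to 15.2%, and the ratio of Anxa1 to Anxa2 was 2.81 in the Tomato-negative and 4.85 in the Tomato-positive fraction. Anxa8 held a near-equal share in both, at 5.03% and 5.58%. Anxa9 dropped from 4.07% to 0.384% of the pool. In Tomato-negative cells Anxa8 was at 1.23 times the level of Anxa9, and in Tomato-positive cells at 14.5 times. Anxa3 was at 1.56 times the level of Anxa6 in the Tomato-negative and 14.8 times in the Tomato-positive fraction. The spread within the family widened as well: the most abundant member was 162 times the least abundant in the Tomato-negative and 951 times in the Tomato-positive fraction.

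**Figure D3:**
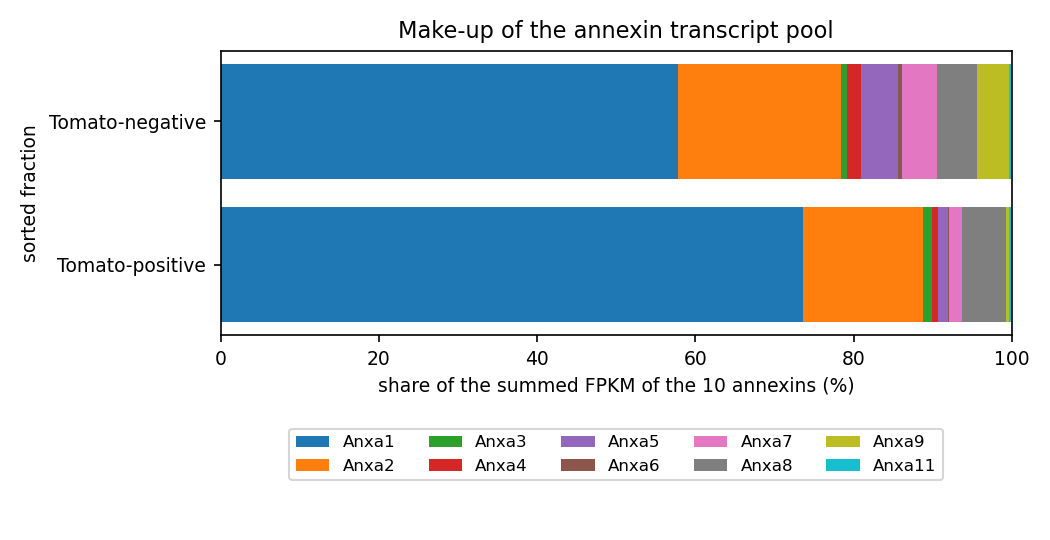
Share of the summed FPKM of the 10 annexin genes (horizontal axis, percent) held by each gene in Tomato-negative and Tomato-positive cells, 1 group value per fraction. Anxa1 takes 57.8% of the Tomato-negative and 73.6% of the Tomato-positive bar, and the bands of Anxa5, Anxa7 and Anxa9 are narrower in the latter.

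In Tomato-negative cells the order by level was Anxa1, Anxa2, Anxa8, Anxa5, Anxa7, Anxa9, Anxa4, Anxa3, Anxa6 and Anxa11. In Tomato-positive cells it was Anxa1, Anxa2, Anxa8, Anxa7, Anxa5, Anxa3, Anxa4, Anxa9, Anxa11 and Anxa6. With 1 value per fraction, whether neighbours in these orders differ beyond the spread of samples could not be tested. The first 3 places were the same in both fractions. Anxa9 and Anxa3 changed sides of Anxa4, and Anxa6 and Anxa11 exchanged the last place.

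The other mouse annexin genes in the table, Anxa10 and Anxa13, were barely detected. Anxa10, a gene of stomach epithelium, was at 1.08 FPKM in Tomato-negative cells and listed at 0 in Tomato-positive cells, and was called lower (the authors' deposited table gave q = 0.000405). Anxa13, a gene of intestine and kidney epithelium, was listed at 0 and 0.0543 FPKM and was not tested.

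RefSeq promoter windows, which run from 250 bases before to 50 bases after an annotated start in GRCm38.p6, were matched by symbol for 8 of the 10 members, with 11 windows in all. Anxa3, which had the largest rise, and Anxa6, which fell, had no window. The windows of Anxa1, Anxa2 and Anxa8, the 3 most abundant members and all called higher, are shown beside the upstream window of Anxa9, the member with the largest fall. Capitals mark the motifs searched on both strands, which were AP-1 as TGANTCA, TEAD as GGAATG, the TATA box as TATAAA, the GC box as GGGCGG and the E-box as CACGTG, and no 2 matches overlap in the windows shown.
Anxa1, chr19:20390622-20390921, minus strand: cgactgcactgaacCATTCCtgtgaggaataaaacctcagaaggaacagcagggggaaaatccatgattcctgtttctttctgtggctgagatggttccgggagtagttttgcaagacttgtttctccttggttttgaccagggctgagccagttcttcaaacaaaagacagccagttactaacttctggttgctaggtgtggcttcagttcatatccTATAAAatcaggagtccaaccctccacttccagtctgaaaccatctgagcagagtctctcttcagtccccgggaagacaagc
Anxa2, chr9:69453433-69453732, plus strand: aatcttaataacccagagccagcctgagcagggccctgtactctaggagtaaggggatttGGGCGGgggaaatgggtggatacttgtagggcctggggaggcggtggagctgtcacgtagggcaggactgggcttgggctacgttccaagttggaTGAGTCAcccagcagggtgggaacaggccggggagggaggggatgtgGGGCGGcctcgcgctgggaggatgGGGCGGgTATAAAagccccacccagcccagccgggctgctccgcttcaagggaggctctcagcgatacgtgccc
Anxa8, chr14:34085729-34086028, plus strand: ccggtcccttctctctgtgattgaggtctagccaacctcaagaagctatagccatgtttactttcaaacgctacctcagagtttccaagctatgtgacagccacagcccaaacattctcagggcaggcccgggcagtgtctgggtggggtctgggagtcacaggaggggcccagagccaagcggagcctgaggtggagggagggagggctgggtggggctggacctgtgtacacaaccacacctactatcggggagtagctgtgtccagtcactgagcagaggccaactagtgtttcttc
Anxa9, chr3:95315131-95315430, minus strand: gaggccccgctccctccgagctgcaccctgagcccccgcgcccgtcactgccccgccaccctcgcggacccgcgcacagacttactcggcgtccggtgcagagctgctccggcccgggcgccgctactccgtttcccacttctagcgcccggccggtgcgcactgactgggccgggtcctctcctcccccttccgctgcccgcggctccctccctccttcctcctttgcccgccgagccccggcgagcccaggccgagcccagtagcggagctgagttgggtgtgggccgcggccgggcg

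No motif stood in all of the windows of Anxa1, Anxa2 and Anxa8. Both the Anxa1 and the Anxa2 window held a TATA box, which starts 32 bases before the annotated start in Anxa1 and 17 bases before it in Anxa2. Of 32851 promoter windows of the same length 13.6% held that motif, and no other annexin window did. The Anxa2 window also held 1 AP-1 motif, 95 bases before the start, and 3 GC boxes. AP-1 letters stood in 7.81% of all windows and GC box letters in 35.7%. In the Anxa1 window, 1 TEAD motif lay on the opposite strand, 236 bases before the start, and such letters stood in 14.7% of all windows. The Anxa8 window and both Anxa9 windows held none of the 5 motifs. The window of Anxa11, also called higher, held 3 GC boxes, as that of Anxa2 did. Elsewhere in the family, GC boxes stood in windows of Anxa4 and Anxa7, and an E-box, found in 7.15% of all windows, in 1 of Anxa7. The GC content was 47.3% for Anxa1, 63.7% for Anxa2, 57.3% for Anxa8 and 75.7% for the upstream window of Anxa9. It was 58.3% for the other Anxa9 window, close to that of Anxa8. A match is a description of the letters and not a shown binding site.

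Some S100 proteins bind the tails of annexins. In a list of 9 S100 genes, not all of them known partners, 3 rose, 3 fell and 3 did not pass. Over all tested genes 13% were called higher and 14.2% lower. The list median log2 fold was -0.50 beside 0.02 over all tested genes. S100a10, the partner of annexin A2, rose from 382 to 677 FPKM, with a log2 fold of 0.83. S100a11, a partner of annexin A1, rose from 775 to 1378 FPKM, likewise by a log2 fold of 0.83. S100a6, a partner of annexin A11, rose from 668 to 2600.1 FPKM, by a log2 fold of 1.96. These 3 were named with their values known, so their match with the annexins is a description. The other genes of the list were not paired with annexins here, so the match does not extend to S100 partners as a group. S100a14, S100a1 and S100a13 fell, S100a14 from 1711 to 1187 FPKM and S100a1 from 37.8 to 19.9 FPKM. S100a16 (1600 and 1208 FPKM), S100a4 (188 and 133 FPKM) and S100b (1.24 and 0.0624 FPKM) did not pass.

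Formyl peptide receptors, through which annexin A1 acts on leukocytes, were low in both fractions. Of 5 genes 2 were tested by the authors' Cuffdiff, and neither passed, although both had an unadjusted p below 0.05. Over all tested genes 13% were called higher and 14.2% lower at q below 0.05, so 0 of 2 is near those shares. The share at an unadjusted p below 0.05 is not given here. Fpr2 was at 0.936 FPKM in the Tomato-negative and 5.12 FPKM in the Tomato-positive fraction, for which the authors' deposited table gave q = 0.0550. Fpr1 was at 0.159 and 3.46 FPKM, for which the authors' deposited table gave q = 0.0928. Fpr3, Fpr-rs3 and Fpr-rs4 were at or near 0. Both tested receptors are known from neutrophils, whose markers are given above.

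Phospholipase A2 enzymes release fatty acids from membrane lipids, the step that annexin A1 is known to restrain. Of 14 tested genes of phospholipase A2 and eicosanoid enzymes, 7 fell, 1 rose and 6 did not pass, with a list median of -0.73. Over all tested genes 14.2% were called lower and 13% higher. Pla2g3 fell from 13.99 to 2.56 FPKM, Pla2g16 from 12.9 to 2.89 FPKM and the secreted enzyme gene Pla2g2f from 30.1 to 8.69 FPKM. Among cytosolic enzymes Pla2g4f fell from 81.3 to 25.0 FPKM and Pla2g4b from 69.6 to 32.6 FPKM. Pla2g4d and Pla2g15 were the other 2 that fell. The single rise was that of Pla2g7, which inactivates platelet-activating factor, from 10.3 to 24.1 FPKM. Pla2g4a, the widely expressed cytosolic phospholipase A2, was at 14.5 and 21.6 FPKM and did not pass, for which the authors' deposited table gave q = 0.0744.

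**Figure D4:**
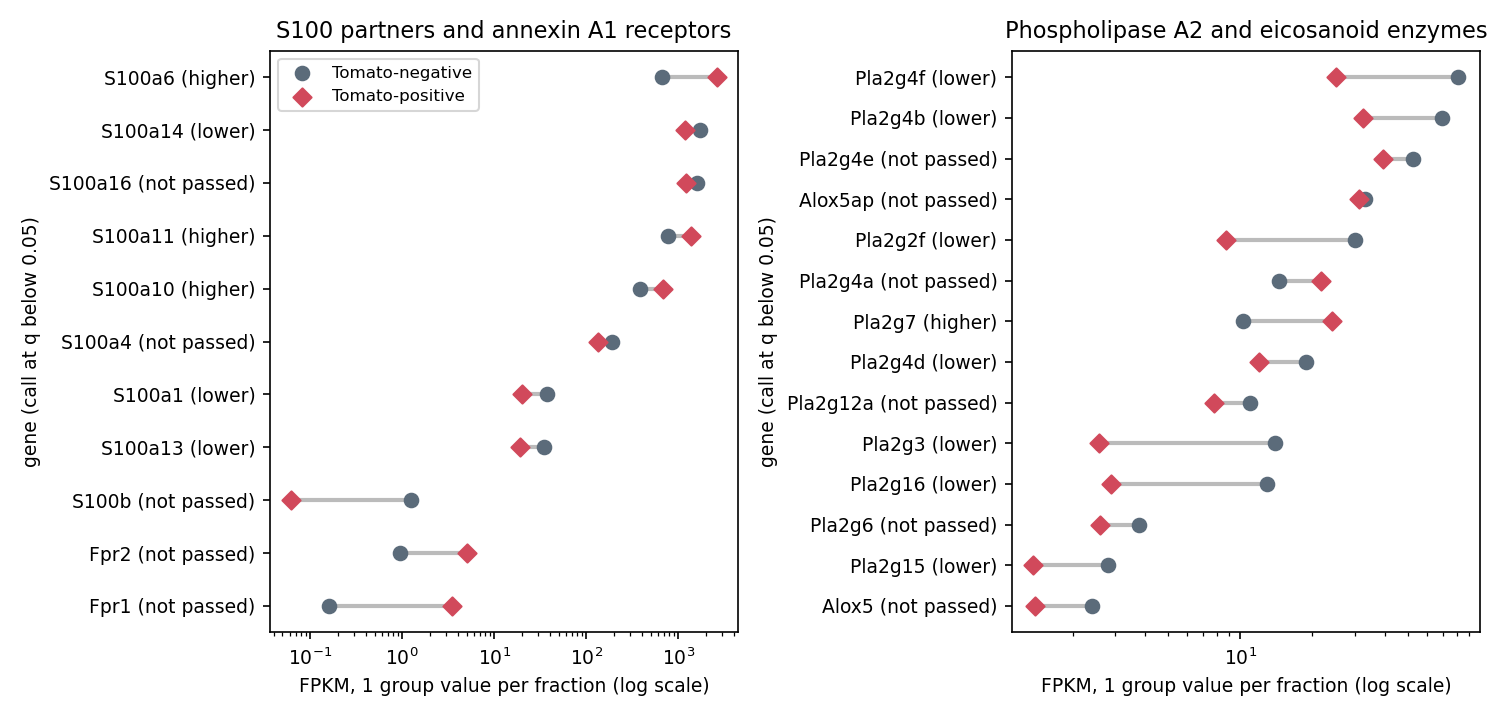
FPKM (horizontal log axes) of tested S100 genes and formyl peptide receptors (left) and of tested phospholipase A2 and eicosanoid enzymes (right) in Tomato-negative (circles) and Tomato-positive (diamonds) cells, 1 group value per fraction, labelled by call at q below 0.05. S100a6, S100a10 and S100a11 lie to the right in Tomato-positive cells, while 7 of the 14 genes on the right panel are called lower.

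Glucocorticoid response genes were listed because Anxa1 is a known glucocorticoid target. Of 9 tested genes 0 were called higher by the authors' Cuffdiff test and 4 were called lower, with a list median of -0.50. The shares over all tested genes were 13% higher and 14.2% lower, so 0 of 9 higher is near the first share. Tsc22d3, a glucocorticoid-induced leucine zipper gene, fell from 27.3 to 10.1 FPKM. Hsd11b1, which regenerates active glucocorticoid, fell from 7.78 to 1.80 FPKM, and Cebpd (20.6 to 12.2 FPKM) and Klf9 (11.5 to 7.37 FPKM) fell too. The receptor gene Nr3c1 was at 8.0 and 8.1 FPKM (the authors' deposited table gave q = 0.977). Sgk1 (63.7 and 54.3 FPKM) and Dusp1 (47.7 and 61.7 FPKM) did not pass. At an unadjusted p below 0.05 the count of genes higher was also 0, a threshold for which the share over all tested genes is not given here. The part of glucocorticoids in the rise of Anxa1 was not tested.

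Genes of membrane repair, in which annexins A1, A2 and A6 take part, went both ways, with 4 of 14 tested higher and 5 lower and a list median of -0.12. The shares over all tested genes were 13% and 14.2%. Capns1, the shared small subunit of the conventional calpains, rose from 112 to 370.1 FPKM. The ferlin gene Myof rose from 11.4 to 28.4 FPKM, Capn2 from 22.5 to 40.0 FPKM and Ehd2 from 23.9 to 40.1 FPKM. Trim72, a repair gene of striated muscle, fell from 3.20 to 0.771 FPKM, in the same comparison in which muscle markers fell. Ahnak, whose large product binds the complex of annexin A2 and S100A10, fell from 462 to 233 FPKM, in the direction opposite to Anxa2 and S100a10. Smpd1, Ahnak2 and Fer1l4 fell as well. Capn1 (110.5 and 98.3 FPKM) did not pass.

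Of 12 penta-EF-hand and ESCRT genes, whose products include partners of annexins A7 and A11, 1 fell and 0 rose by the authors' Cuffdiff test, with a list median of 0.02 and 1 higher at an unadjusted p below 0.05. Chmp4b fell from 203 to 141 FPKM. Pdcd6, which encodes ALG-2, was at 64.3 and 85.6 FPKM (the authors' deposited table gave q = 0.0680), and Sri, which encodes the annexin A7 partner sorcin, was at 85.7 and 82.3 FPKM. Copines are another family of calcium-dependent phospholipid-binding proteins. Of 5 tested by Cuffdiff, 0 were called higher and 1 lower, with 2 higher at an unadjusted p below 0.05. With 5 genes, a count of 0 is near the 13% of all tested genes that were called higher. Cpne5 fell from 8.68 to 2.44 FPKM, while Cpne1, at 13.4 and 23.9 FPKM, did not pass. The list median of the copines was 0.70, opposite in sign to the only call. Among 13 tested genes that set the exposure of phosphatidylserine, the lipid annexin A5 binds, 2 rose and 2 fell, with a list median of 0.33. The scramblase gene Ano6 rose from 4.22 to 7.23 FPKM and Atp8b2 from 3.93 to 10.1 FPKM, and Tmem30b (15.7 to 7.33 FPKM) and Plscr4 (5.46 to 2.05 FPKM) fell. Across all tested genes 13% were called higher and 14.2% lower, and none of these lists was tested against those shares. Those shares are at q below 0.05, and the shares at an unadjusted p below 0.05 are not given here.

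Of the 3834 other called genes with values above 0 in both fractions and a named symbol, those nearest to each called annexin were found by the Euclidean distance of both log2 FPKM values. This measure rests on 2 points per gene. Nearest to Anxa1 was the basal keratin gene Krt5 (distance 0.12), followed by Sprr1a and Tmsb4x. Anxa8 lay nearest to Flna (0.05), which encodes an actin cross-linker, and Eno1. Anxa3 lay nearest to Lamb3 (0.12), which encodes a laminin-332 chain, and then to Pfkl and Plau. Anxa2 was nearest to Gpx1 (0.31), Actg1 and Pfn1, Anxa11 to Rap2b, Anxa6 to Abhd14b and Anxa9 to H2-T22.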

How the data were processed

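RNA was measured in 4 samples of sorted tumour cells, 2 of each fraction. The submitters' processing notes name TopHat, Cuffdiff and the build mm9; the sources used here do not give versions, annotation or strand setting. The FPKM values are the authors' group values, per the file headers, and the p-value and q-value are those of the authors' Cuffdiff table, per the file headers. FPKM depends on the other genes in a library, and 4238 short RNA rows held 36.4% and 38.2% of the FPKM sums. Depth per sample is unknown, and no values per sample were used.

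Of 37574 rows, 16219 had the status OK and counted as tested. Log2 folds were computed from FPKM with no pseudocount, and the deposited log2 folds, which hold spreadsheet errors, were not used. The 10 members, the 8 lists of related genes and the 7 marker lists were chosen with earlier results of these data known, and the threshold of 5 FPKM for the second background after the values were seen. In each list, all genes were counted, and examples were named by largest log2 fold among called genes with at least 1 FPKM, or by highest mean FPKM among those that did not pass; partners and enzymes named for their role were chosen after their values were seen. Likeness left out predicted, clone and small RNA symbols. Deposited starts were raised by 1 to the 1-based form. The Benjamini-Hochberg step was tested on simulated data. Software was Python 3.11.15, SciPy 1.17.1, NumPy 2.4.6, pandas 2.3.3 and, for plots, matplotlib 3.10.9.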

Additional observations from a re-analysis of the deposited data

How the results depend on the processing

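The 5 annexins called higher and the 2 called lower kept those counts at q below 0.01 and with at least a 2-fold difference required. They also did with the Benjamini-Hochberg adjustment computed again over all tested genes, and over genes with a mean of at least 1 FPKM alone. All 7 had a Cuffdiff q of 0.000405, a mean of at least 5 FPKM and a difference of at least 2-fold. These settings could therefore not lower the counts, and the unchanged counts add no support. The log2 folds of single annexins kept their sign in 39 of 40 alternatives, which added 1 or 0.1 to FPKM, centred on the median of all tested genes, or left out short RNA rows. The exception was Anxa7, at -0.0093 in place of 0.02 without short RNA rows, a gene that was not called. Anxa2 stood close to the 2-fold limit, at a log2 fold of 1.008. It lay under that limit after centring on the median (0.992) and without short RNA rows (0.982). The ratio of summed annexin FPKM was 2.73, and without Anxa1 it was 1.71, since Anxa1 holds most of the sum. Leaving out samples was not run because the values join both samples of a fraction. No paired analysis was possible because the columns carry no replicate. Protein features were not analysed here. Unknown depth limits all of these values.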
